A study of Mus musculus with 8 samples.

Results

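The dual-specificity mitogen-activated protein kinase (MAPK) phosphatases were examined in bone marrow neutrophils of Padi4 knockout (KO) and wild-type (WT) mice, without and with R848. Members were the rows of the count table carrying the symbols Dusp1, Dusp2, Dusp3, Dusp4, Dusp5, Dusp6, Dusp7, Dusp10, Dusp16 and Dusp22, which are 10 of the 24421 genes listed. Tested were the 9 members detected in 2 or more libraries. Dusp4 had no count in any library.

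RNA-seq counts were available for 8 libraries, 2 in each of 4 groups. WT mice were C57BL/6 and Padi4 KO mice carried a deletion of the first exon of Padi4 in every cell on that background, so differences between genotypes are not limited to effects arising inside neutrophils. All mice were 8 weeks old and female, and their neutrophils were enriched magnetically from bone marrow. R848, a synthetic agonist of Toll-like receptor 7, was given at 1 µg/ml for 6 h. The unstimulated groups carry 0 h in their titles, whereas the protocol describes wells left unstimulated beside the stimulated ones, so the effect of R848 and that of time in culture cannot be told apart. The sources do not say that the 2 libraries of a group came from separate mice, and p-values therefore measure the spread between these libraries, which may be technical.

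MAPKs are switched on by phosphorylation of a threonine and a tyrosine in their activation loop, and dual-specificity phosphatases remove both phosphates. Dusp1, Dusp2, Dusp4 and Dusp5 are nuclear enzymes encoded by rapidly inducible genes, Dusp6 and Dusp7 are cytoplasmic enzymes that prefer ERK, Dusp10 and Dusp16 prefer the stress kinases JNK and p38, and Dusp3 and Dusp22 are small atypical enzymes that lack the MAPK-binding domain of the others. In myeloid cells stimulated through Toll-like receptors these enzymes are known as negative feedback regulators of p38, JNK and ERK. Dusp1, also called MAPK phosphatase 1, is the member best known for limiting cytokine production by macrophages.

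Library totals ranged from 562446 to 1177972 counts, at which 3 counts correspond to 2.18 to 6.11 CPM (the count scaled to a common library size after TMM scaling). Padi4 had 590 and 527 counts in unstimulated WT libraries, 166 and 234 in R848-stimulated WT libraries, 40 and 54 in unstimulated KO libraries and 34 and 21 in R848-stimulated KO libraries, which matched the genotype labels. The 11 neutrophil markers in the table were all detected, and their summed level, on library totals without TMM scaling like the other marker sums here, was 151535 to 157754 CPM in unstimulated WT, 127335 to 141468 in R848-stimulated WT, 123780 to 125320 in unstimulated KO and 102636 to 103287 in R848-stimulated KO. After TMM scaling it was 147122 to 156291, 150779 to 175891, 98979 to 101482 and 106966 to 108078 CPM in the same order, so that it was lower in KO on both scales, while with R848 it was lower on library totals but overlapped in WT and was higher in KO after TMM scaling. Of 10 erythroid markers, 8 were detected and the haemoglobin genes Hbb-bt and Hba-a1 were listed at 0. Their sum was 97.8 to 112 CPM and 19.4 to 26.2 CPM in unstimulated and stimulated WT, against 1089 to 1161 and 1229 to 1263 CPM in KO. The 9 monocyte markers summed to 1493 to 1615, 3365 to 3499, 2220 to 2232 and 3572 to 3637 CPM in unstimulated WT, stimulated WT, unstimulated KO and stimulated KO (after TMM scaling, stimulated WT at 4143 to 4184 lay above stimulated KO at 3722 to 3805), and the 8 stromal and endothelial markers to 219 to 248, 35.9 to 39.3, 590 to 748 and 47.5 to 51.1 CPM in the same order. Monocyte markers moved in both directions, with 3 passing as higher and 3 as lower in each response by the rule given below. Adgre1 went from a mean of 39.1 to 2443 CPM after TMM scaling in WT and from 36.8 to 1798 in KO. F13a1 went from 177 to 53.7 and from 372 to 104. Between stimulated genotypes 4 monocyte markers passed as higher in KO and 1, Adgre1, as lower. Eosinophil and basophil markers summed to at most 53.0 CPM, T and NK cell markers to at most 39.0 CPM with Cd3e, Cd8a and Klrb1c at 0, and B cell markers to at most 16.8 CPM with Ebf1 at 0, in every library. The part of these cells in the results below was not tested. Fewer cells of a type and less RNA per cell cannot be told apart in such bulk samples.

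With R848, Dusp16, Dusp2 and Dusp5 rose from near absence in both genotypes, and Dusp1 fell. Changes were tested by the quasi-likelihood test of edgeR, adjusted over 12254 genes after Benjamini and Hochberg (the adjusted p is given below as edgeR FDR), and a response had to pass an FDR of 0.1 and exceed 2-fold. In WT, 3 of the 9 tested members rose and 2 fell, where 7.17% of all tested genes rose and 10.8% fell. In KO, 3 members rose and 2 fell, where 8.07% of all genes rose and 8.84% fell. The median log2 fold change of the 9 members was 0.99 in WT and 0.60 in KO, against -0.17 and -0.031 over all tested genes. An exact permutation test on a single gene in 2 against 2 libraries cannot give a p below 0.333, so the tests rest on the spread shared across genes.

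The promoters of these 4 genes differed in the short motifs they held. The 250 bases upstream of the annotated start (RefSeq, GRCm38.p6) are shown, 5′ to 3′ on the strand of the gene, for the gene that fell and the 3 that rose in both genotypes. Capitals mark matches to the cAMP response element (CRE) TGACGTCA, its short form TGACG, the E-box CACGTG or the CArG consensus bound by serum response factor, searched on both strands. Dusp1 lies at chr17:26508473-26508722 (minus strand), Dusp16 at chr6:134792629-134792878 (minus strand), Dusp5 at chr19:53528895-53529144 (plus strand) and Dusp2 at chr2:127335909-127336158 (plus strand).
Dusp1: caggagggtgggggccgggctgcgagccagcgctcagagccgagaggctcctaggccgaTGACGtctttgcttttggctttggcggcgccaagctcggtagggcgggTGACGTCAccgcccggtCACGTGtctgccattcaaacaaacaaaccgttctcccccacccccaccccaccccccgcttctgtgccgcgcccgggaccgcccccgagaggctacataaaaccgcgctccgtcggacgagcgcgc
Dusp16: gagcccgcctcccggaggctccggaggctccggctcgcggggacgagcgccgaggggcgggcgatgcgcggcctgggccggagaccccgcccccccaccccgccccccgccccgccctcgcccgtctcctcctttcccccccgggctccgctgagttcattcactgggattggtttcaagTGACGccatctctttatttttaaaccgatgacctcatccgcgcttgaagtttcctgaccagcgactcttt
Dusp5: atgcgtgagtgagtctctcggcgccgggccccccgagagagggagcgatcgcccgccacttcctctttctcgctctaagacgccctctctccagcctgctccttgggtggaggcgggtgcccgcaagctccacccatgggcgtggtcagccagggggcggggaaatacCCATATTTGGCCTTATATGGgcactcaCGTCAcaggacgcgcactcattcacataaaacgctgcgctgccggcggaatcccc
Dusp2: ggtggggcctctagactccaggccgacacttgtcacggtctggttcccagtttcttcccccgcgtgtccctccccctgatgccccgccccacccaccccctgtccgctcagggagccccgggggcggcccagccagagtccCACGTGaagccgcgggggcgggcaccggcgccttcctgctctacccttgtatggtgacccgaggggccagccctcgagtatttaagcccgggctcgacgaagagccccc

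The Dusp1 promoter held a full CRE 143 to 136 bases before the start, a separate TGACG at 191 to 187 and an E-box at 126 to 121. The full CRE contains the short form on both strands, and these matches overlap. Dusp16 held 1 TGACG at 70 to 66, Dusp5 held adjacent CArG matches at 82 to 73 and 72 to 63 with a TGACG on the opposite strand at 55 to 51, and Dusp2 held 1 E-box at 109 to 104. Among 32851 promoter windows of the same length, 1.55% held the CRE, 17.8% TGACG, 6.02% the E-box and 1.47% the CArG consensus. Neither the AP-1 motif TGANTCA (6.75% of windows) nor the interferon-stimulated response element (2.98%) occurred in any of the 9 promoters on file, and the NF-kB consensus (5.0%) occurred only in that of Dusp22, as overlapping matches between 240 and 230 bases before the start. Dusp3, Dusp6, Dusp7 and Dusp10 held none of these letters in the window. A match is a description of the sequence and not evidence of binding.

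**Figure D1:**
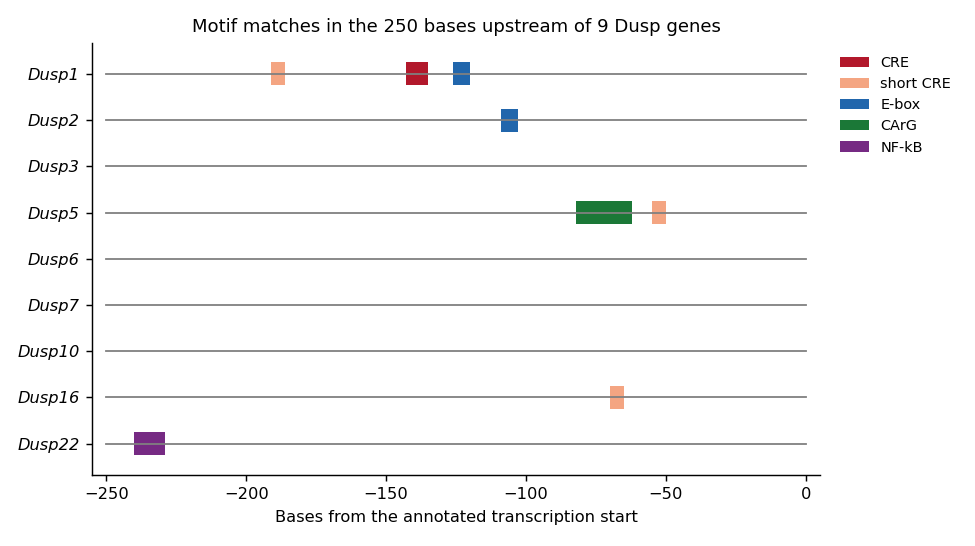
Position of motif matches in the 250 bases upstream of the annotated start (x axis, bases) in 9 Dusp genes (y axis), with 1 coloured block for each match or run of overlapping or adjacent matches. Dusp1 carries the only full CRE, with the E-box beside it, and Dusp5 the only CArG matches.

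Dusp1 was the most abundant member before stimulation and fell after R848 in both genotypes, further in KO. Its level was 720 and 736 CPM in unstimulated WT libraries, 208 and 198 CPM in stimulated WT libraries, 735 and 754 CPM in unstimulated KO libraries and 116 and 124 CPM in stimulated KO libraries. The unstimulated genotypes lay close together, and every stimulated KO library lay below every stimulated WT library. The log2 fold change with R848 was -1.84 ± 0.12 (SE, edgeR FDR = 5.161e-55) in WT and -2.63 ± 0.10 (edgeR FDR = 2.868e-140) in KO.

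The Dusp1 responses differed between genotypes by -0.79 ± 0.17 on the log2 scale (edgeR FDR = 0.0003005), the only difference of response to pass among the 9 members. Over all tested genes, the difference of response passed as higher in KO for 3.45% and as lower for 1.26%. Before stimulation Dusp1 did not pass between genotypes (log2 0.034 ± 0.086, edgeR FDR = 0.8638), although with library size alone as the scaling it did, at 0.32 (edgeR FDR = 0.002636), as it did without the second stimulated WT library (0.18, edgeR FDR = 0.06377). After R848 it was lower in KO by a log2 change of -0.75 ± 0.14 (edgeR FDR = 3.63e-06). The median gene had a difference of response of 0.18, relative to which the Dusp1 difference was -0.97. In the stimulated groups the summed neutrophil markers were also lower in KO, as given above.

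**Figure D2:**
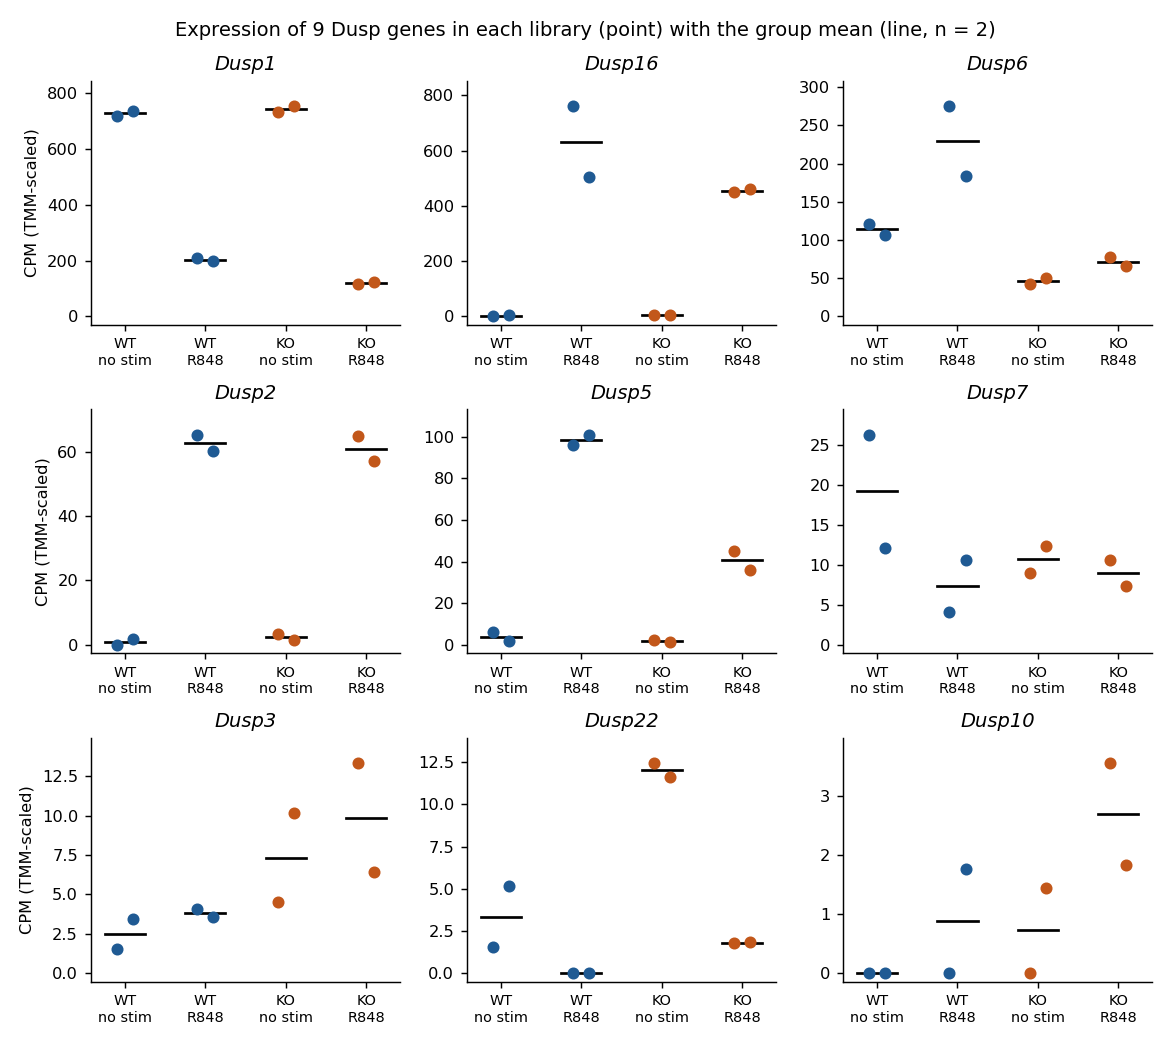
Level of 9 Dusp genes (y axis, CPM after TMM scaling, linear, a separate scale in each panel) in WT (blue) and Padi4 KO (orange) libraries with and without R848. Points are libraries and lines are group means (n = 2). Dusp1 falls from 720 to 754 CPM to 116 to 208 CPM, whereas Dusp16, Dusp2 and Dusp5 rise from at most 6.18 CPM.

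Dusp2, a nuclear phosphatase of haematopoietic cells also called PAC-1, was barely detected without R848. It had 0 and 1 counts in unstimulated WT libraries, 32 and 34 in stimulated WT libraries, 3 and 2 in unstimulated KO libraries and 73 and 62 in stimulated KO libraries. In CPM the stimulated libraries stood at 65.2 and 60.2 in WT and 64.9 and 57.0 in KO, so the genotypes overlapped. The scaled ratio of summed counts was 76.7 in WT (95% counting interval 13.3 to 3073) and 27.6 in KO (11.5 to 86.4). Both responses passed (log2 6.02, edgeR FDR = 1.01e-19, in WT, and 4.70, edgeR FDR = 7.208e-32, in KO). Between stimulated KO and WT the ratio was 0.975, with a counting interval from 0.721 to 1.33. The difference of response was -1.33 ± 1.31 (edgeR FDR = 0.7544), an error too wide to compare the inductions. Counting intervals cover counting error only, and they are given because the fitted fold change of a gene with so few baseline counts is poorly bounded.

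Dusp5, a nuclear phosphatase that binds and inactivates ERK, was induced in both genotypes to a lower level in KO. It had 4 and 1 counts in unstimulated WT libraries and 2 and 2 in unstimulated KO libraries. After R848 its level was 95.8 and 101 CPM in WT and 45.3 and 35.8 CPM in KO, and the groups did not overlap. The response was a log2 fold change of 4.55 ± 0.42 (edgeR FDR = 2.774e-26) in WT and 4.41 ± 0.45 (edgeR FDR = 5.663e-21) in KO. Stimulated KO lay below stimulated WT by a log2 change of -1.27 ± 0.22 (edgeR FDR = 1.735e-07). Unstimulated, the change was -1.14 ± 0.92 on at most 4 counts a library and did not pass (edgeR FDR = 0.4507), and the difference of response was -0.13 ± 1.86 (edgeR FDR = 0.9998). An antisense gene overlaps 547 exon bases of Dusp5 on the opposite strand, and reads from both genes cannot be told apart there, since the library kit does not mark strand.

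Dusp4, the remaining nuclear member, had 0 counts among 6613316 in all libraries together, which allows an average level of up to 0.454 CPM. Within a single library 3 counts correspond to 2.18 to 6.11 CPM, so a level confined to 1 group is less closely bounded.

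Dusp16, which prefers JNK and p38, showed the largest rise of the 9 tested members. It had 0 and 2 counts in unstimulated WT libraries, 373 and 285 in stimulated WT libraries, 4 and 8 in unstimulated KO libraries and 506 and 501 in stimulated KO libraries. In CPM the stimulated libraries stood at 760 and 505 in WT and at 450 and 460 in KO. On this scale both KO libraries lay below both WT libraries, and the WT libraries differed from each other more than the KO libraries did. On library totals the second WT library, with 285 of 668857 counts, lay below both KO libraries, so the groups overlapped. The KO libraries had 506 of 1177972 and 501 of 1134163 counts. The scaled ratio of summed counts was 382 in WT (95% counting interval 105 to 3162) and 85.8 in KO (48.9 to 167).

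The log2 fold change of Dusp16 was 8.46 (edgeR FDR = 2.709e-177) in WT and 6.38 (edgeR FDR = 1.193e-209) in KO. The difference of response was -2.08 ± 0.88 and did not pass (edgeR FDR = 0.2428), but without the second stimulated WT library it was -2.58 and passed (edgeR FDR = 0.09592). It ranged from -1.06 without the first unstimulated WT library (edgeR FDR = 0.7754) to -5.73 without the second (edgeR FDR = 0.1284). It rests on 2 baseline counts in WT. Stimulated KO lay below stimulated WT by a log2 change of -0.46 ± 0.095 (edgeR FDR = 2.953e-05), and by -0.24 with library size alone (edgeR FDR = 0.06601). The change was -0.29 without the first stimulated WT library (edgeR FDR = 0.06724) and -0.82 without the second. Unstimulated, KO lay 1.61 ± 0.89 above WT on the log2 scale (edgeR FDR = 0.2356), and from 0.60 without the first unstimulated WT library to 5.26 without the second, where it passed (edgeR FDR = 0.08739).

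Dusp10, the other enzyme that prefers stress kinases, had 0 to 4 counts in each library and passed in no comparison. Its 4 counts stood in a stimulated KO library, and a difference between groups was not detectable at this depth.

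**Figure D3:**
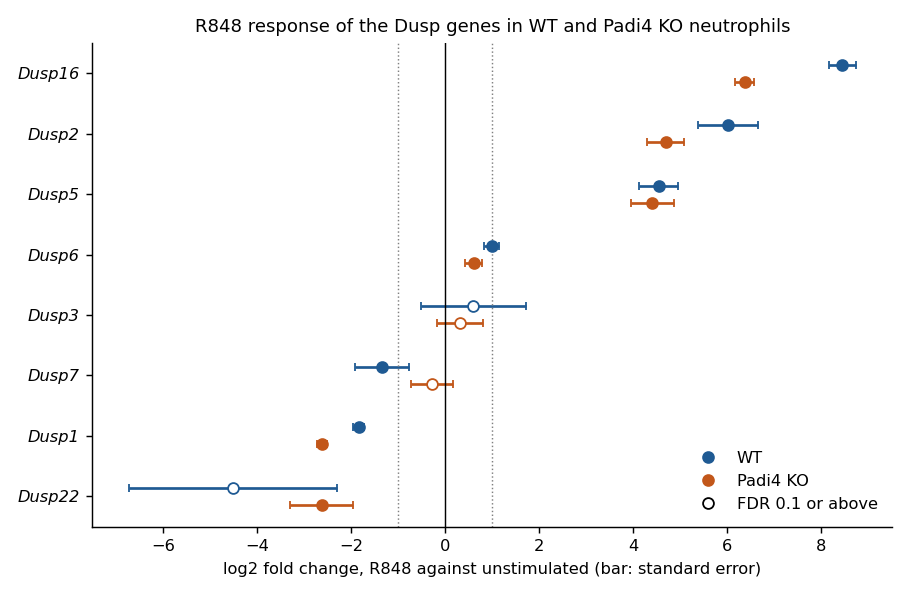
Log2 fold change with R848 (x axis) of 8 Dusp genes in WT (blue) and Padi4 KO (orange) neutrophils, with SE derived from the quasi-likelihood statistic as bars, open symbols for an FDR of 0.1 or above and dotted lines at 2-fold. Dusp16, Dusp2 and Dusp5 lie far to the right in both genotypes, and Dusp1 lies further left in KO (-2.63) than in WT (-1.84). For Dusp16 and Dusp2 the bars are narrower than the counting intervals given in the text.

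Dusp6, a cytoplasmic phosphatase specific for ERK, was lower in KO whether or not R848 was given. Its level was 121 and 107 CPM in unstimulated WT libraries, 275 and 184 CPM in stimulated WT libraries, 43.0 and 50.1 CPM in unstimulated KO libraries and 77.3 and 66.2 CPM in stimulated KO libraries. All 4 KO libraries lay below all 4 WT libraries. KO differed from WT by a log2 change of -1.27 ± 0.19 without R848 (edgeR FDR = 2.36e-09) and -1.66 ± 0.16 with R848 (edgeR FDR = 1.549e-23).

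With R848, Dusp6 had a log2 fold change of 0.99 ± 0.16 in WT (edgeR FDR = 1.363e-08) and 0.60 ± 0.19 in KO (edgeR FDR = 0.006153), so that both passed the FDR but, being under 2-fold, not the rule for a response. The WT value exceeded 2-fold under DESeq2 (1.08), under relative log expression scaling (1.06) and without any of 5 libraries, at most without the second stimulated WT library (1.37). The KO value did not pass the FDR with DESeq2 (adjusted p = 0.1952), with library size alone (0.23, edgeR FDR = 0.3727) or without the first stimulated KO library (0.34, edgeR FDR = 0.3264). The difference of response was -0.39 ± 0.25 (edgeR FDR = 0.5462), and it passed only without the second stimulated WT library (-0.90, edgeR FDR = 0.02541).

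Dusp7, the cytoplasmic relative of Dusp6, was low in every group. It had 17 and 7 counts in unstimulated WT libraries, 2 and 6 in stimulated WT libraries, 8 and 17 in unstimulated KO libraries and 12 and 8 in stimulated KO libraries. The fall in WT (log2 -1.35 ± 0.57, edgeR FDR = 0.06674) was close to the threshold. It was lost under DESeq2 (adjusted p = 0.3213), without the first unstimulated WT library (-0.66, edgeR FDR = 0.6452), without the first stimulated WT library (-0.74, edgeR FDR = 0.5009) and without either stimulated KO library (edgeR FDR = 0.1034 and 0.102). In KO the value was -0.28 ± 0.45 (edgeR FDR = 0.688).

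Dusp22, an atypical phosphatase known as an activator of the JNK pathway, fell with R848 in KO. It had 1 and 3 counts in unstimulated WT libraries, 0 and 0 in stimulated WT libraries, 11 and 16 in unstimulated KO libraries and 2 and 2 in stimulated KO libraries. The KO response was a log2 fold change of -2.63 ± 0.67 (edgeR FDR = 0.0005297). With DESeq2 it was -2.82 and close to the threshold (adjusted p = 0.09521). With 0 set to a floor of 3 counts over the group, stimulated WT lay 1.15-fold below unstimulated WT. This takes the 4 unstimulated counts as exact, so it does not bound the fall. The change in WT did not pass (edgeR FDR = 0.1287). It passed with library size alone (edgeR FDR = 0.08251), with a stricter filter on low counts (edgeR FDR = 0.07801) and without the first unstimulated WT library (edgeR FDR = 0.09274). The summed stromal and endothelial markers were likewise highest in unstimulated KO, next in unstimulated WT and lower in both stimulated groups, as given above. This order was that of the stromal genes Col1a1, Col1a2 and Sparc. The endothelial marker Pecam1 did not share it. Its mean level was lowest in unstimulated KO and higher with R848 in both genotypes, and it passed in no comparison. Cdh5, also endothelial, was nearly absent. The part of these markers in the fall of Dusp22 was not tested.

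Without R848, Dusp22 was higher in KO by a log2 change of 1.82 ± 0.71 (edgeR FDR = 0.05306). This was lost without the first unstimulated WT library (1.18, edgeR FDR = 0.4431) and without the first or second unstimulated KO library (edgeR FDR = 0.1105 and 0.1405). The summed erythroid, monocyte, and stromal and endothelial markers were also higher and the summed neutrophil markers lower in unstimulated KO, as given above. Of the stromal and endothelial markers, Col1a1, Col1a2 and Sparc passed as higher, and Pecam1 did not pass.

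Dusp3, an atypical phosphatase also called VHR, had 1 and 2 counts in unstimulated WT libraries, 2 and 2 in stimulated WT libraries, 4 and 14 in unstimulated KO libraries and 15 and 7 in stimulated KO libraries. No comparison of Dusp3 passed. Its unstimulated genotype change of 1.64 ± 0.82 (edgeR FDR = 0.1588) passed with library size alone (1.92, edgeR FDR = 0.0885) and without the first unstimulated KO library (edgeR FDR = 0.08771). An antisense gene overlaps 604 of its exon bases.

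Comparing genotypes directly, 2 of the 9 tested members passed without R848, Dusp22 higher and Dusp6 lower in KO, where 9.55% of all tested genes were higher and 14.4% lower. After R848, 4 members passed and all were lower in KO, namely Dusp1, Dusp5, Dusp6 and Dusp16, where 9.46% of all tested genes were higher and 7.81% lower. These 4 genes were the ones to pass after R848 under each alternative setting and each omission of a library. The genotype comparisons share their libraries with the responses above, so these are different views of the same 8 libraries. Summed neutrophil markers were lower and summed erythroid markers higher in KO in both states, and their part in these 4 differences was not tested. After TMM scaling, Dusp2 was the induced member whose stimulated levels overlapped between genotypes. On library totals those of Dusp16 overlapped too.

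**Figure D4:**
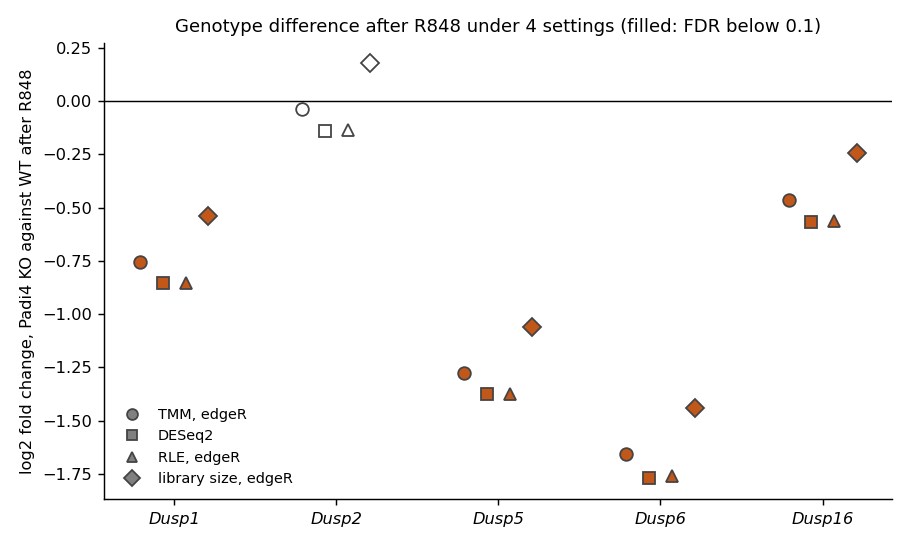
Log2 fold change between Padi4 KO and WT after R848 (y axis) for 5 Dusp genes (x axis), under 4 combinations of scaling and test given by symbol shape, with filled symbols for an FDR below 0.1. Dusp1, Dusp5, Dusp6 and Dusp16 lie below 0 and are filled under all 4, and Dusp2 lies near 0 and changes sign between scalings without passing.

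Levels of different genes were compared per kilobase (kb) of exon, in CPM per kb. In unstimulated WT neutrophils Dusp1 stood at 307 ± 4.49 (SD, n = 2), followed by Dusp6 at 40.7 ± 3.42 and Dusp7 at 5.97 ± 3.12, and the other members were below 2. In unstimulated KO neutrophils Dusp1 stood at 314 ± 5.68 and Dusp6 at 16.6 ± 1.80. Dusp1 thus made up 85.9% of the summed level of the family in WT and 92.1% in KO.

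After R848 the family was spread over 5 genes. In WT, Dusp1 (85.6 ± 2.86 CPM per kb), Dusp16 (84.1 ± 24.0) and Dusp6 (82.1 ± 23.0) differed by less than their spread, and Dusp5 (39.8 ± 1.47) and Dusp2 (38.8 ± 2.20) lay below them and also differed by less than their spread. In KO the order was Dusp16 (60.5 ± 1.02), Dusp1 (50.7 ± 2.29), Dusp2 (37.7 ± 3.44), Dusp6 (25.6 ± 2.81) and Dusp5 (16.4 ± 2.71), and both libraries gave this order. Dusp1 made up 25.6% of the family in WT and 25.7% in KO, and Dusp16 25.2% and 30.7%.

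The summed level of the 10 members was 358 and 356 CPM per kb in unstimulated WT libraries and 368 and 299 in stimulated WT libraries, which overlapped. It was 335 and 347 in unstimulated KO libraries and 203 and 192 in stimulated KO libraries, so that in KO the stimulated libraries lay below all 6 others. With library size alone the sums were 361 and 367 in unstimulated WT, 296 and 253 in stimulated WT, 414 and 434 in unstimulated KO and 194 and 184 in stimulated KO, so that stimulated libraries lay below unstimulated ones in WT too, and unstimulated KO above unstimulated WT. The exon lengths are those of the union of annotated transcripts, and a gene of which neutrophils use shorter transcripts is understated on this scale.

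**Figure D5:**
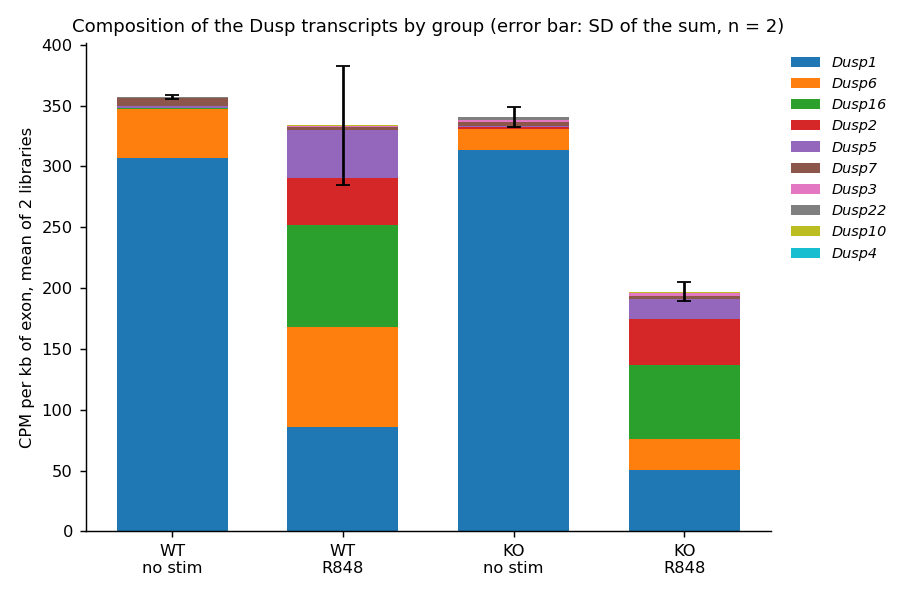
Summed level of the Dusp family (y axis, CPM per kb of exon, stacked group means from 0) in each group (x axis), coloured by gene, with the SD of the sum over 2 libraries as error bars. Dusp1 fills most of the unstimulated bars, 5 genes share the stimulated bars, and the stimulated KO bar (197 ± 7.84) is the lowest.

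The kinases on which these phosphatases act, and their other regulators, were followed in 6 lists holding 62 genes, of which 47 were tested. In WT 4 rose and 3 fell with R848, and in KO 4 rose and 3 fell, shares near those of all tested genes given above. With DESeq2 these were 5 and 0 in WT and 4 and 1 in KO, and with library size alone 3 and 5 in WT and 2 and 5 in KO. Their median log2 fold change was 0 in WT and 0.095 in KO. Without the 2-fold requirement 22 passed in WT and 21 in KO, where 29.5% and 35.1% of all tested genes passed. The largest rise was that of Mapkapk2, the kinase directly downstream of p38, whose level went from 238 and 238 CPM to 2122 and 1979 CPM in WT and from 195 and 201 CPM to 1694 and 1648 CPM in KO. Its log2 fold change was 3.10 ± 0.096 in WT (edgeR FDR = 5.035e-222) and 3.07 ± 0.088 in KO (edgeR FDR = 2.171e-261), and stimulated KO lay below WT by -0.29 ± 0.073 (edgeR FDR = 0.0008955), a call lost with library size alone (-0.078, edgeR FDR = 0.552).

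Among the other MAPK-activated kinases, Rps6ka4, which encodes the nuclear kinase MSK2, rose by 1.53 in WT (edgeR FDR = 1.338e-06) and 1.10 in KO (edgeR FDR = 1.893e-07). The KO value was under 2-fold with library size alone (0.72) and without either stimulated WT library or the first stimulated KO library, to 0.87 without the latter. Rps6ka2, an RSK family kinase downstream of ERK, rose by 1.43 in KO (edgeR FDR = 1.114e-24) and had a value of 0.78, under 2-fold, in WT (edgeR FDR = 2.654e-06). Rps6ka1, another RSK kinase, had values of -0.31 in WT (edgeR FDR = 0.01208) and 0.36 in KO (edgeR FDR = 0.0004481), under 2-fold in both. The FDR was lost with DESeq2 in both (adjusted p = 0.25 and 0.1284), in WT without any of 4 libraries, to -0.10 without the first stimulated WT library (edgeR FDR = 0.6207), and in KO with library size alone and without the second stimulated KO library (0.18, edgeR FDR = 0.2911).

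Of 10 tested MAPKs, Mapk6 rose in WT by 1.30 (edgeR FDR = 0.0001439), a value just under 2-fold with library size alone (0.99), and had a value of 0.67 in KO (edgeR FDR = 0.005556), under 2-fold, which did not pass the FDR with DESeq2 (adjusted p = 0.3609), with library size alone (edgeR FDR = 0.2795), or without the second unstimulated (0.35, edgeR FDR = 0.3811) or second stimulated KO library (0.50, edgeR FDR = 0.1458). Mapk4 fell by 2.71 in KO on 0 to 17 counts a library (edgeR FDR = 0.001399), and this was lost without the second unstimulated KO library, which held the 17 counts (-1.94, edgeR FDR = 0.2126). Mapk9, which encodes JNK2 (-1.22, edgeR FDR = 0.05073), and Nlk (-1.17, edgeR FDR = 0.06918), both named after their values were seen, passed as lower in WT. They had at most 17 counts a library in WT, and neither passed at an FDR of 0.05 or with DESeq2. Mapk14, which encodes p38 alpha, had values of 0.36 in WT (edgeR FDR = 0.002501) and 0.61 in KO (edgeR FDR = 7.394e-11), and Mapk13, p38 delta, of -0.69 (edgeR FDR = 3.464e-05) and -0.29 (edgeR FDR = 0.06485), all under 2-fold. Mapk3, which encodes ERK1, had a value of -0.35, under 2-fold, in WT (edgeR FDR = 0.009854), which lost the FDR with DESeq2 (adjusted p = 0.2337) and without any of 4 libraries, to -0.16 without the first stimulated WT library (edgeR FDR = 0.4555). Its value in KO was 0.17 (edgeR FDR = 0.2099).

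Of the 7 MAPK kinases, Map2k1, which activates ERK, rose by 1.08 in KO (edgeR FDR = 3.662e-18) and had a value of 0.67, under 2-fold, in WT (edgeR FDR = 2.12e-05). The KO value was itself under 2-fold with relative log expression factors (0.998), with library size alone (0.70) and without any 1 of the 4 stimulated libraries (0.94 to 0.95). Its partner Map2k2 had a value of 0.57, under 2-fold, in KO (edgeR FDR = 0.0003832), which lost the FDR with DESeq2 (adjusted p = 0.1517), with library size alone (0.19, edgeR FDR = 0.3145) and without the first stimulated KO library (0.36, edgeR FDR = 0.1422), and of 0.21 in WT (edgeR FDR = 0.4689). Map2k3, which activates p38, had values of 0.98 in WT (edgeR FDR = 9.297e-10) and 0.55 in KO (edgeR FDR = 6.755e-05), both under 2-fold. The WT value exceeded 2-fold with DESeq2 (1.06), with relative log expression factors (1.06) and without any of 5 libraries (1.05 to 1.26), and the KO value lost the FDR with DESeq2 (adjusted p = 0.1128), with library size alone (edgeR FDR = 0.3006) and without the second unstimulated KO library (edgeR FDR = 0.1097). Map2k5 had a value of -1.60 in WT (edgeR FDR = 0.06966) and -1.10 in KO (edgeR FDR = 0.02721). The WT call was lost with DESeq2 (adjusted p = 0.277) and without any of 5 libraries, to -0.90 without the first stimulated WT library (edgeR FDR = 0.4839). The KO call was lost with DESeq2 (adjusted p = 0.3544), without the second unstimulated KO library (-0.46, edgeR FDR = 0.6628) and without the first stimulated KO library (-0.81, edgeR FDR = 0.235). Map2k6, named after its values were seen, also passed as lower in KO (edgeR FDR = 0.01199), with 5 and 4 counts in unstimulated and 0 and 0 in stimulated libraries.

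The remaining lists held few large changes. Of 8 tested dual-specificity phosphatases outside the 10 members, 0 passed in any comparison by edgeR or DESeq2, with at most 1 at an unadjusted p under 0.05 in each. Dusp11, which acts on RNA, had values under 2-fold of 0.48 in WT (edgeR FDR = 0.00907) and 0.59 in KO (edgeR FDR = 1.147e-05). Of 7 other phosphatases of MAPKs, 0 passed in either response by edgeR or DESeq2, although 3 in WT and 4 in KO had an unadjusted p under 0.05. Under other alternatives 3 single values passed 2-fold and the FDR, those of Ptpn7 in KO with library size alone (-1.01), Ppm1b in KO without the second unstimulated KO library (1.05) and Ppp2ca in WT without the second stimulated WT library (1.04). Ppp2ca, the catalytic subunit of protein phosphatase 2A, had values of 0.80 in WT (edgeR FDR = 6.24e-08) and 0.52 in KO (edgeR FDR = 2.518e-05). Ppm1a had a value of 0.57 in both WT (edgeR FDR = 0.006436) and KO (edgeR FDR = 0.0004338), and Ppm1b 0.61 in WT (edgeR FDR = 0.04976) and 0.98 in KO (edgeR FDR = 1.01e-06). Named list genes had 22 responses in all that passed the FDR under 2-fold, of which 14 lost the FDR under at least 1 alternative setting or omission of a library. The 8 that kept it throughout were those of Mapk13, Map2k1, Map2k3, Rps6ka2 and Ppp2ca in WT and of Mapk14, Ppm1b and Ptpn7 in KO. Spred1, an inhibitor of the pathway to ERK, rose in WT by 2.41 (edgeR FDR = 0.003211) from 3 and 1 counts to 11 and 8 counts, and had 14 and 12 counts in unstimulated and 19 and 19 in stimulated KO libraries.

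The response of 4 of the 47 listed genes differed between genotypes by edgeR, where 3.45% of all tested genes were higher and 1.26% lower in KO. It was higher in KO for Rps6ka1 (0.66, edgeR FDR = 0.0001617), Rps6ka2 (0.65, edgeR FDR = 0.05252) and Mapk3 (0.52, edgeR FDR = 0.024), and lower for Ptpn7, a tyrosine phosphatase of ERK and p38 in leukocytes (-0.73, edgeR FDR = 0.09135). Under DESeq2 their adjusted p rose to between 0.1268 and 0.5536. None of the 4 passed without the first stimulated KO library, and Rps6ka2 passed under no omission of a library. The count of 3 higher and 1 lower became 1 and 2 with relative log expression factors, where Mapk3 (edgeR FDR = 0.249) and Rps6ka2 (edgeR FDR = 0.2643) were lost and Map2k3 passed as lower (-0.59, edgeR FDR = 0.08573). It became 0 and 2 without the first stimulated WT or the first stimulated KO library, 0 and 1 without the second stimulated KO library, and 1 and 3 without the second stimulated WT library. Map2k3 passed as lower without the first or second stimulated WT or the first stimulated KO library, and Ppp2ca without the second stimulated WT or the first stimulated KO library. Without R848, 1 listed gene was higher and 12 lower in KO (over all tested genes, 9.55% were higher and 14.4% lower), against 4 and 3 with library size alone and 0 and 3 with DESeq2. After R848, 0 were higher and 6 lower (over all tested genes, 9.46% and 7.81%), against 2 and 1 with library size alone and 0 and 3 with DESeq2.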

How the data were processed

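Paired-end MiSeq reads of 8 libraries were trimmed with cutadapt 1.16, checked with FastQC 0.11.7, aligned to mm10 with STAR 2.5.3a and counted per gene with HTSeq 0.6.1p1 by the authors, who deposited raw counts. The annotation and strand setting used for counting are not given in the sources used here, and the library kit does not mark strand. Rows outside genes held 10.5% to 13.0% of each library and were left out of tests. The members and gene lists were chosen with earlier results of these data known.

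Counts were analysed in R 4.3.3 with edgeR 4.0.16 (TMM factors over summed gene counts, genes with at least 1 count in at least 2 libraries, robust quasi-likelihood fit with 1 mean per group, Benjamini-Hochberg adjustment over 12254 genes). Thresholds were an FDR of 0.1 and, for responses, more than 2-fold. The study's own test, DESeq2, was run as an alternative (version 1.42.0), besides relative log expression factors, library size alone, stricter and looser count filters, an FDR of 0.05, the replicate number as a block and omission of each library. The biological coefficient of variation was 4.68%. SE is the log2 fold change divided by the root of the F statistic. CPM used TMM-scaled library sizes, marker sums used library totals, and exon lengths came from GENCODE M21. The procedure was tested on simulated data. Chi-square over degrees of freedom between the 2 libraries of a group was 1.06 to 1.64 (p = 0.000455 or smaller, 6879 to 6910 degrees of freedom), little above counting noise in 3 groups. They were kept as separate libraries, as labelled, though this does not show that they are separate biological samples.

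Named genes were all members, from each list up to 3 genes with the smallest p in each response among those with an FDR under 0.1, every listed gene whose response differed, and the 3 genes most like each member averaging at least 50 counts. For Dusp1, 1 of these is not reported here. Promoters came from RefSeq, with 9 of 10 members matched and no entry for Dusp4.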

Additional observations from a re-analysis of the deposited data

Results flagged for a closer look

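The R848 response of Dusp1 differed between genotypes by the test of the difference itself, at -0.79 on the log2 scale, lower in Padi4 KO (edgeR FDR = 0.0003005). The value ranged from -1.06 to -0.77 when 1 library was left out and from -0.94 to -0.79 over the other settings, and it passed in all of them. Both stimulated KO libraries (116 and 124 CPM) lay below both stimulated WT libraries (208 and 198 CPM). The summed neutrophil markers were lower and the summed erythroid markers higher in stimulated KO than in stimulated WT, and their part in the difference was not tested.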

How the results depend on the processing

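For the 9 tested members, 622 of 653 alternative values kept their side of the FDR threshold, judged without the 2-fold requirement. The threshold was 0.1, or 0.05 in the setting with that FDR. These 622 kept their direction or changed sign by no more than 1 SE of the main fit. Another 13 lost and 11 gained the FDR, and 0 reversed. A further 7 moved, changing sign or going to 0 by more than that SE without passing. For the named list genes 1257 of 1415 were kept, 105 lost and 17 gained the FDR, 34 moved and 2 reversed. The members passing without R848 between genotypes numbered 2, against 1 with DESeq2 (which gave Dusp22 no adjusted p), 1 at an FDR of 0.05, 4 with library size alone and 1 to 4 when a library was left out (1 without the first unstimulated WT or the second unstimulated KO library, 4 without the second unstimulated WT library, Dusp7 and Dusp16 being added). The members whose response differed numbered 1, and 1 to 3 when a library was left out, with Dusp6 and Dusp16 added without the second stimulated WT library. The cause was not tested. With library size alone the KO response reversed for Mapk3 (-0.21, against 0.17) and Rps6ka1 (-0.022, against 0.36), which is the common shift of -0.38 that this scaling gives to all genes.

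Deviations of same-numbered libraries correlated by -0.010 to 0.020 over 6912 genes. Libraries of most groups differed by little more than counting noise, so this does not show whether the replicate numbers pair the libraries. With the number as a block 6 members passed in the WT response, Dusp6 being added, and 5, 1, 2 and 4 in the KO response, the difference, and the genotype comparisons without and with R848, as without it.

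Library size alone moved the median of 6912 genes by -0.30 in the WT response, -0.38 in the KO response, 0.29 between unstimulated and 0.21 between stimulated genotypes, and DESeq2 and relative log expression factors moved that of the difference by -0.16. Calls over all genes, higher and lower, went from 879 and 1328 to 811 and 719 with DESeq2 and 630 and 2106 with library size alone in WT, and from 989 and 1083 to 690 and 599 and to 624 and 2072 in KO. For the difference they went from 423 and 154 to 35 and 90 with DESeq2, 160 and 233 with relative log expression factors and 255 and 170 with library size alone. For unstimulated genotypes they went from 1170 and 1763 to 475 and 586 with DESeq2 and 1901 and 561 with library size alone, and after R848 from 1159 and 957 to 387 and 621, to 1870 and 417, and to 990 and 1359 with relative log expression factors. Relative to the median gene, the Dusp1, Dusp5, Dusp6 and Dusp16 differences after R848 were -0.75, -1.27, -1.66 and -0.46 in the edgeR fit; a scaling shifts all genes alike and so cannot move such values. Listed kinase and phosphatase genes passing without the 2-fold requirement numbered 22 in WT and 21 in KO, against 7 and 7 with it, and 4 in WT at an FDR of 0.05. At these depths, differences in Dusp3, Dusp4, Dusp7, Dusp10 and Dusp22, with at most 17 counts a library, were little resolved.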

Other observations

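The genes whose level across the 8 libraries was most like that of an abundant member were searched among 2918 genes averaging at least 50 counts, by the root mean square distance between log2 CPM values centred on each gene's mean. This is a description over libraries that share groups, and says nothing of shared function or control.

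For Dusp1, whose log2 CPM spanned 2.67, Lbp (distance 0.21), which encodes a lipopolysaccharide-binding protein, and Cytip (0.25) were among the 3 nearest. Lbp had 94 and 85 counts in unstimulated WT, 13 and 20 in stimulated WT, 110 and 158 in unstimulated KO and 26 and 24 in stimulated KO libraries.

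For Dusp6, which spanned 2.61, the nearest were G0s2 (0.29), an inhibitor of triglyceride lipolysis, Txnip (0.35) and Slc27a4 (0.35). G0s2 had 46 and 43 counts in unstimulated WT, 95 and 103 in stimulated WT, 41 and 73 in unstimulated KO and 65 and 59 in stimulated KO libraries.

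For Dusp16, which spanned 8.33, the nearest were Cd14 (0.25), a co-receptor for bacterial lipopolysaccharide, Icam1 (0.46), an adhesion molecule, and Irg1 (0.56), the enzyme that makes itaconate. Cd14 had 5 and 11 counts in unstimulated WT, 1517 and 1473 in stimulated WT, 20 and 40 in unstimulated KO and 1586 and 1437 in stimulated KO libraries.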
